A study of Canis lupus familiaris with 7 samples.

Results

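The genes described here carry vitamin A (retinol) in blood, bring it into cells, turn it into retinoic acid and answer to that acid. The set was chosen by name and has 9 genes: the plasma carriers *RBP4* and *TTR*, the uptake receptor *STRA6*, the cellular binding proteins *CRABP1* and *CRABP2*, the synthesis enzymes *ALDH1A1* and *ALDH1A2*, and the nuclear receptors *RARA* and *RARB*. Of these, 8 were found among the 24580 genes of the expression table, and *CRABP1* was not analysed here. RNA came from 4 pieces of grossly non-malignant bone (N1, N3, N8 and N9) and 3 pieces of osteosarcoma (OSA; T1, T3 and T10) from dogs, with OSA diagnosed by histopathology. Tissue was taken by veterinary surgeons at amputation or after euthanasia, the non-tumor piece from bone next to a tumor, so the non-tumor group was bone of affected dogs. The labels give no breed, age or treatment for a sample, nor whether T1 and N1, or T3 and N3, came from the same dog. They also do not say which samples are separate dogs, so p-values measure only the spread between these samples.

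Retinol leaves the liver bound to RBP4, which travels in plasma in complex with transthyretin, the product of *TTR*, and STRA6 is the membrane receptor through which many cells take retinol from RBP4. Inside the cell, retinol is oxidised to retinaldehyde and then, by the ALDH1A enzymes, to retinoic acid. CRABP proteins hold retinoic acid in the cytoplasm and pass it to the nucleus or to CYP26 enzymes, which break it down. In the nucleus, retinoic acid receptors bind DNA as dimers with retinoid X receptors, and *RARB*, *CYP26* genes, *CRABP2* and *STRA6* are themselves known targets. Retinoic acid is well known in bone for its part in limb patterning, growth plate cartilage and osteoclast formation.

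*RBP4* (ENSCAFG00000007893, CanFam3.1 chromosome 28 from 7823195 to 7830387) was the only 1 of the 7 genes tested that passed the threshold in the fit with all samples. In OSA tumor its level was 339 FPKM in T10, 284 in T1 and 48.8 in T3. Non-tumor bone had 14.4 FPKM in N9, 36.0 in N3, 62.4 in N8 and 67.5 in N1. T1 and T10 had 4.21 and 5.03 times the level of the highest non-tumor sample, whereas T3 lay within the non-tumor range, so the groups overlapped. FPKM are fragments scaled to transcript length and to the fragments mapped, as computed by the authors. The non-tumor mean was 45.1 ± 24.7 FPKM (SD, n = 4) and the tumor mean 224 ± 154 FPKM (SD, n = 3). On the log2(FPKM + 1) scale the difference was 2.09 (standard error 0.80, 95% interval 0.28 to 3.90, unadjusted p = 0.0278, adjusted p = 0.693 by limma). The threshold, taken from the study's methods, was a log2 fold change of 1 or more in either direction together with an unadjusted p below 0.05.

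The share of all 13507 tested genes past that threshold was 6.86%, with 3.28% higher and 3.58% lower in OSA tumor, beside 1 of 7 genes of the set higher and 0 lower. After adjustment, 0 genes of the limma fit were below 0.05, and 927 were below it unadjusted. *RBP4* was also among the genes the study picked from these same samples for qRT-PCR, so its direction here is not independent evidence. By qRT-PCR, on more specimens than were sequenced, the study reported higher *RBP4* in tumor. That result is not part of the values here. A two-sided exact permutation test, on the absolute difference of means over all 35 assignments of the group labels, gave p = 0.114 for *RBP4*, where the smallest p it can give is 0.0286. Across the 7 genes tested the median log2 fold change was 0.55, against -0.02 over all genes. This is a description only: *STRA6* met the filter on low values through its tumor samples alone, and *ALDH1A1* and *ALDH1A2* changed sign under other settings. The groups did not overlap in 0 of the 7, beside 5.85% of all genes tested (3.04% with OSA tumor above and 2.81% with it below).

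**Figure D1:**
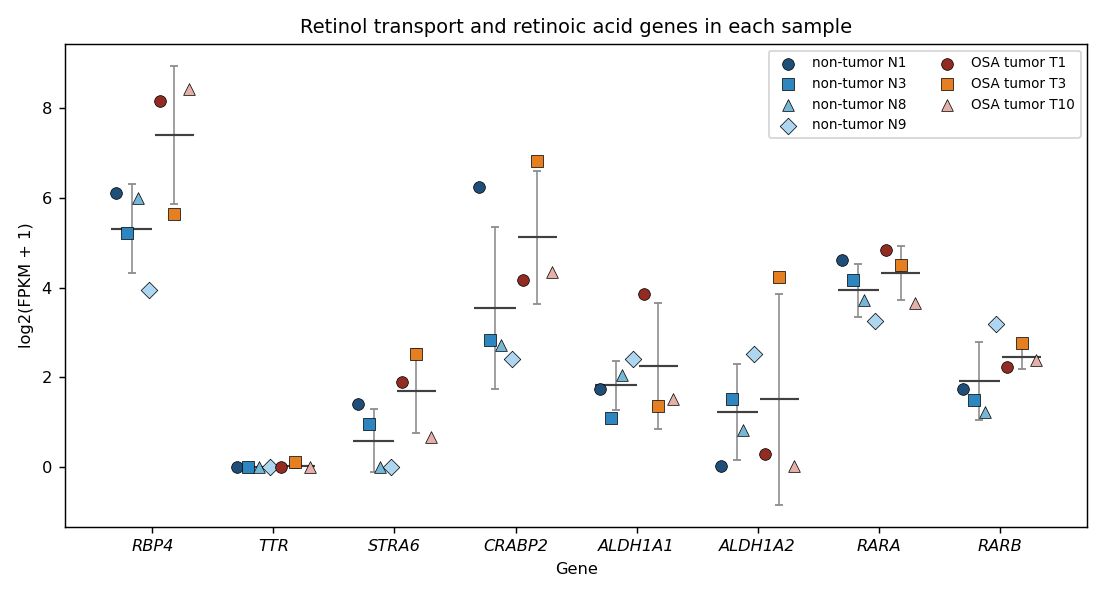
Level of 8 genes as log2(FPKM + 1) in each of the 7 samples, with blue symbols for non-tumor bone and red or orange symbols for OSA tumor; horizontal lines are group means and vertical bars are 1 SD (n = 4 and n = 3). T1 and T10 stand above the other samples in *RBP4*, T3 and N1 in *CRABP2*, and T3 in *ALDH1A2*, while *TTR* lies at or near 0 in all 7.

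The *RBP4* call rested on single samples. It was lost without N3 (2.06, unadjusted p = 0.0570 by limma), without N9 (1.64, unadjusted p = 0.0699), without T1 (1.71, unadjusted p = 0.105) and without T10 (1.59, unadjusted p = 0.122). Without T3, the tumor sample with the low value, the log2 fold change was 2.97 (unadjusted p = 0.00339 by limma). Without the filter on low values the fold change was the same, but the unadjusted p was 0.0542 by limma. The adjusted p ran from 0.263 to 1 over the 18 alternatives.

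**Figure D2:**
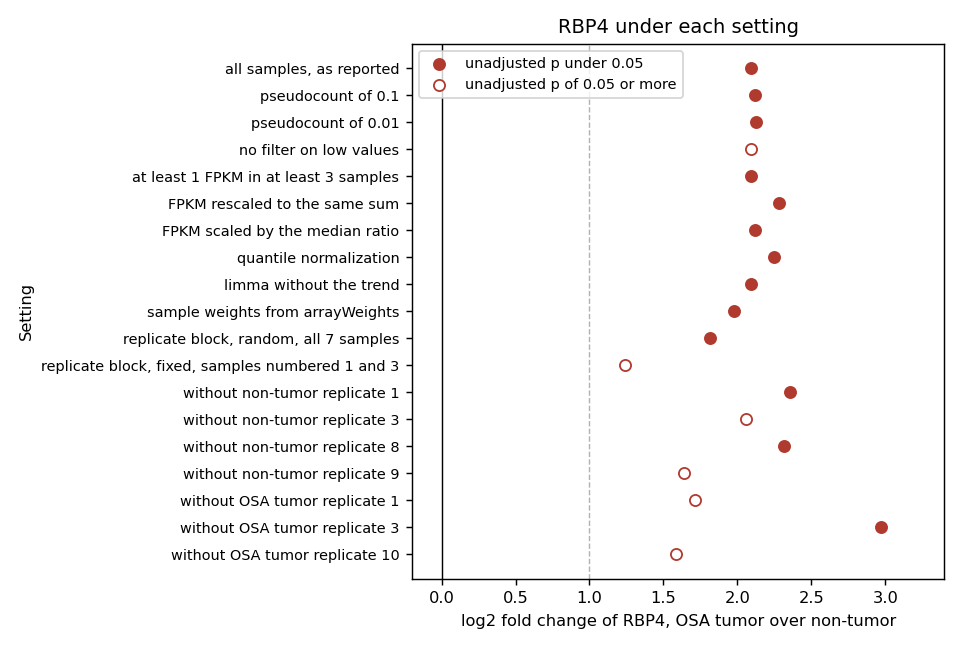
Log2 fold change of *RBP4* (x axis, OSA tumor over non-tumor, on log2(FPKM + 1) or the stated scale) in the fit with all samples and under 18 alternatives (y axis); filled points passed the threshold and open points did not. All values lie to the right of 0, between 1.24 and 2.97, and 6 of the 18 alternatives did not pass.

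The genes whose pattern over the 7 samples was most like that of *RBP4* were *THY1*, *SGMS2*, *LOX*, *LHFPL2* and *NIPA1*. Likeness was the root mean square difference of log2 values, each gene centred on its own mean, and it was 0.34 for *THY1* and 0.59 for *NIPA1*, where *RBP4* itself deviated from its mean by 1.47. *THY1*, a surface glycoprotein of fibroblasts and other mesenchymal cells, was at 155 FPKM in T10, 84.9 in T1 and 14.2 in T3. Its non-tumor values ran from 7.78 FPKM in N9 through 18.6 in N3 and 24.6 in N1 to 28.1 in N8, so N9 was the lowest sample and T3 the lowest tumor sample in both genes. *LOX*, the enzyme that starts the crosslinking of collagen and elastin, was at 65.5 FPKM in T10, 56.2 in T1 and 13.0 in T3. In non-tumor bone it ranged from 4.42 to 13.3 FPKM, and T3 lay within that range. The log2 fold change was 1.64 for *THY1*, 1.42 for *SGMS2*, 2.29 for *LOX*, 1.63 for *LHFPL2* and 1.33 for *NIPA1*. These 5 genes were chosen for following *RBP4* over the same 7 samples, so their fold changes are a description and carry no test.

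The plasma partner of RBP4 was at or near 0 in these tissues. *TTR* (ENSCAFG00000018046, chromosome 7 from 57940279 to 57947136) was listed at 0 in 6 samples and at 0.0778 FPKM in T3, and it did not enter the test, which took genes averaging 1 FPKM or more. An exact 0 in such a table can also be a failed estimate. In the liver both carriers are made together with albumin. Of the hepatocyte markers, *ALB* reached at most 0.148 FPKM, *AHSG* at most 0.0458 FPKM, and *FGB* was listed at 0 in all 7 samples. In the samples with the most *RBP4*, *ALB* was listed at 0 in T1 and at 0.0725 FPKM in T10. The summed level of the 9 hepatocyte markers, 28.5 to 89.8 FPKM in OSA tumor and 8.06 to 202 in non-tumor bone, was carried by *SERPINA1* and *APOA1*. Its tumor maximum was in T10, where *RBP4* was also highest, with *SERPINA1* at 89.0 FPKM there, 33.3 in T3 and 21.5 in T1, and *APOA1* listed at 0 in T10.

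Adipocytes are another known source of RBP4. The summed level of the 6 adipocyte markers was 49.4 FPKM in T10, 24.7 in T1 and 14.3 in T3, against 30.5 to 286 in non-tumor bone. Of the 5 tested, 4 were lower in OSA tumor, beside 3.58% of all genes. Of these, *CIDEC*, *PLIN4* and *PLIN1*, the coat protein of fat droplets, met the filter on low values through their non-tumor values. *PLIN1* was at 0.50 FPKM in T1 and 0.179 in T10, the samples with the most *RBP4*. It was at 5.14 FPKM in N9, which had the least. *CIDEC*, *PLIN4*, *CIDEA* and *LPL* were also lower in T1 and T10 than in N9. *LEP*, which did not enter the test, was lower in T1 but higher in T10 than in N9. Among tumor samples the markers were split. T10 was the highest in *LPL*, *CIDEA* and *LEP*, but not in *PLIN1*, *CIDEC* or *PLIN4*. The summed level of the 9 osteoblast markers was 12761 FPKM in T1, 3250 in T10 and 1962 in T3, and 7471 in N1, 1723 in N3, 504 in N9 and 162 in N8. T1 was thus highest in this sum and second to T10 in *RBP4*, while N8 was lowest in the sum and near N1 in *RBP4*. In bulk tissue, fewer cells of a type and less RNA per cell cannot be told apart, and the part of cell composition in these values was not tested.

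*STRA6* (ENSCAFG00000017877, chromosome 30 from 37331629 to 37359116), the RBP4 receptor, was low in every sample. It was at 0.591 FPKM in T10, 2.74 in T1 and 4.75 in T3, and at 1.64 in N1 and 0.935 in N3, while it was listed at 0 in N8 and N9. T3 was highest, and T10, where *RBP4* was highest, lay below N1 and N3. N8 and N9 also had the fewest fragments behind a given FPKM, 0.546 and 0.648 times that of N1 as read from the steps between the lowest values. The log2 fold change came to 1.11 (standard error 0.64, 95% interval -0.33 to 2.55, unadjusted p = 0.116 by limma), and it did not pass the threshold (two-sided exact permutation test, p = 0.143). The size depended on the pseudocount, at 2.53 with 0.1 and 4.15 with 0.01 in place of 1, and neither value passed. Of the 18 alternatives it passed in 1, without T10, at 1.62 (unadjusted p = 0.0289 by limma).

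*CRABP2* (ENSCAFG00000016755, chromosome 7 from 41277095 to 41282200), the cytoplasmic protein that hands retinoic acid to its receptors, varied 25.9-fold across samples. In OSA tumor it was at 19.5 FPKM in T10, 17.1 in T1 and 111 in T3. Among the non-tumor samples, N9 had 4.31 FPKM, N8 5.59 and N3 6.14, and N1 had 74.9. All tumor samples were above N3, N8 and N9, and N1 lay above T1 and T10. The means were 49.4 ± 53.8 FPKM (SD, n = 3) and 22.7 ± 34.8 FPKM (SD, n = 4), with 75.3% of the tumor sum in T3 and 82.4% of the non-tumor sum in N1. The log2 fold change of 1.56 (standard error 1.02, 95% interval -0.72 to 3.85, unadjusted p = 0.157 by limma) did not pass the threshold, and the exact permutation test gave p = 0.371. Without N1 it was 2.46 (unadjusted p = 0.00962, adjusted p = 0.194 by limma) and passed, whereas without T3 it was 0.72 (unadjusted p = 0.531). The adjusted p over the alternatives ran from 0.194 to 1.

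*RBP4* and *CRABP2* were the 2 most abundant genes of the set in N1, T3 and T10, and *RBP4* ranked first in 5 of the 7 samples and *CRABP2* in N1 and T3. FPKM are per length, so these levels can be set side by side. The level of *RBP4* was 16.6 times that of *CRABP2* in T1 and 17.4 times in T10, but 0.437 times in T3. Among non-tumor samples the ratio was 3.34 in N9, 11.1 in N8, 5.87 in N3 and 0.901 in N1, and the groups overlapped (two-sided exact permutation test of the log2 ratio, p = 0.8).

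The retinaldehyde dehydrogenases of the set were low, and each was high in 1 tumor sample. *ALDH1A1* (ENSCAFG00000001791, chromosome 1 from 84940066 to 84994247) was at 1.89 FPKM in T10, 13.5 in T1 and 1.58 in T3, and in non-tumor bone between 1.15 in N3 and 4.28 in N9, with 2.37 in N1 and 3.13 in N8. T1 stood above every other sample and held 79.6% of the tumor sum. *ALDH1A2* (ENSCAFG00000016466, chromosome 30 from 23074408 to 23170609) was at 17.7 FPKM in T3 but at 0.220 in T1 and 0.0237 in T10. N9 had 4.77 FPKM, N3 1.88, N8 0.786 and N1 0.0172, a range over all 7 samples of 1032-fold, with 98.6% of the tumor sum in T3. The log2 fold changes were 0.43 (95% interval -1.13 to 1.99, unadjusted p = 0.551 by limma) for *ALDH1A1* and 0.29 (-2.07 to 2.64, unadjusted p = 0.790) for *ALDH1A2*, neither past the threshold. The sign of both turned with 1 sample left out: *ALDH1A1* was at -0.38 without T1, and *ALDH1A2* at -1.07 without T3 and -0.11 without N1. A pseudocount of 0.1 in place of 1 also turned *ALDH1A2* to -0.17.

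*RARA* (ENSCAFG00000016060, chromosome 9 from 22254803 to 22289459), the most widely expressed of the retinoic acid receptors, had the narrowest range of the set, 3.24-fold. Its levels were 11.7 FPKM in T10, 27.6 in T1 and 21.5 in T3, and from 8.53 in N9 through 12.3 in N8 and 16.9 in N3 to 23.5 in N1 among non-tumor samples. The non-tumor mean was 15.3 ± 6.46 FPKM (SD, n = 4) and the tumor mean 20.3 ± 8.04 FPKM (SD, n = 3), a difference within the spread of either group. *RARB* (ENSCAFG00000005727, chromosome 23 from 18207760 to 18377660) was at 4.23 FPKM in T10, 3.67 in T1 and 5.82 in T3. N9 had 8.06, and N1, N3 and N8 had 2.35, 1.82 and 1.35, so the tumor samples lay above 3 of the 4 and below N9. The log2 fold changes were 0.39 for *RARA* (95% interval -0.76 to 1.55, unadjusted p = 0.464 by limma) and 0.55 for *RARB* (-0.74 to 1.84, unadjusted p = 0.365). Both stayed positive and short of the threshold under all 18 alternatives, and the exact permutation tests gave p = 0.457 and p = 0.371. *RARA* was above *RARB* in every sample, by 10.01 times in N1 and 1.06 times in N9 at the extremes.

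The other genes of the pathway were taken from a list of 63 symbols in 7 roles, of which 53 were found and 41 tested. Of these 41, 0 were higher and 4 were lower in OSA tumor, beside 3.28% and 3.58% of all genes, and the median log2 fold change was -0.37. The call of each of the 4 was lost in at least 7 of the 18 alternatives, and the number past the threshold was 9 without N1, 0 without N3, 0 without N8, 1 without N9 and 2 without T1.

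**Figure D3:**
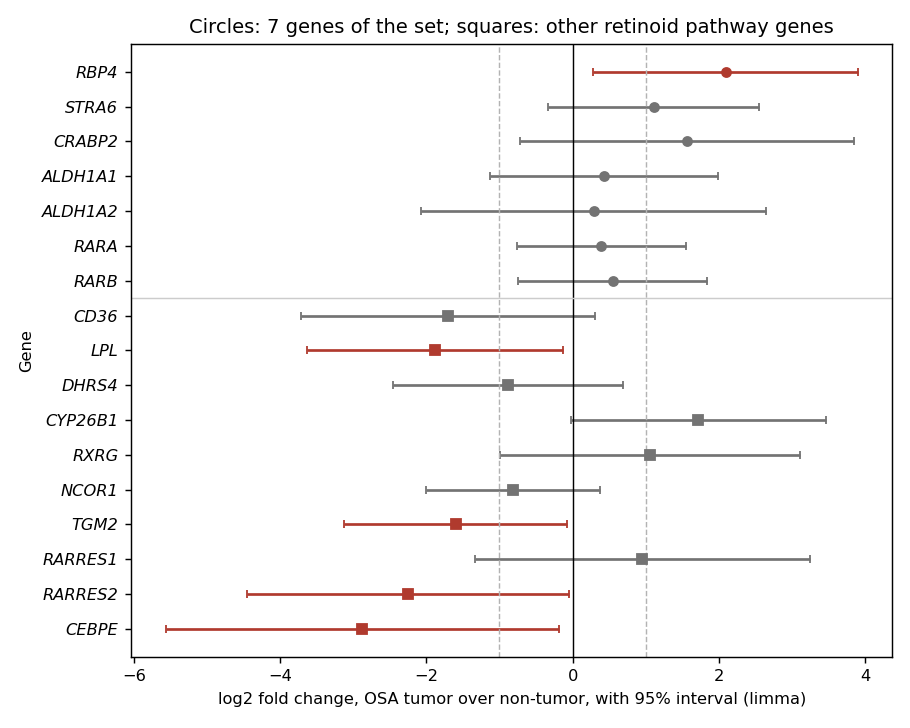
Log2 fold change (x axis, OSA tumor over non-tumor on the log2(FPKM + 1) scale) with its 95% interval from limma for the 7 genes of the set that were tested (circles) and 10 other retinoid genes (squares); red marks genes past the threshold and dashed lines a fold change of 2. The interval of *RBP4*, 0.28 to 3.90, lies above 0, and the other 6 circles have intervals that span 0.

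Among the genes of retinol binding and uptake, 0 of 3 tested passed the threshold and all 3 had negative fold changes. *RBP7*, a retinol-binding protein of fat and endothelium, was at 61.9 FPKM in N3 and 53.6 in N8 but at 1.12 in N1 and 5.604 in N9, and it reached 7.51 in OSA tumor, in T3, so the groups overlapped (log2 fold change -2.70, unadjusted p = 0.0586 by limma). *CD36*, a scavenger and fatty acid receptor and the most abundant of this role, had a log2 fold change of -1.70 and passed in 1 of the 18 alternatives, without N1, at -2.43.

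In retinyl ester storage and release, 1 of 5 genes tested was lower and 0 were higher, beside 3.58% and 3.28% of all genes. *LPL*, the lipoprotein lipase that releases retinyl esters from circulating lipid particles, was at 43.6 FPKM in T10, 21.4 in T1 and 8.55 in T3, and ran from 25.3 in N1 and 57.9 in N8 to 139 in N3 and 174 in N9 (log2 fold change -1.89, unadjusted p = 0.0375 by limma). *LPL* is also one of the adipocyte markers above. *LRAT*, the enzyme that esterifies retinol for storage, was at 4.59 FPKM in T3 and at most 1.26 in the other 6 samples. Of 9 genes that convert retinol and retinaldehyde, 0 passed, and 7 had negative fold changes, from -1.20 for *DHRS3* upward. *DHRS4*, the most abundant of them, was at -0.88. *RDH10*, the main retinol dehydrogenase of the embryo, was at 41.4 FPKM in T3, above the 4.26 to 15.4 FPKM of the other samples.

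Both CYP26 genes tested had positive fold changes that did not pass, and *CYP26A1* was not found by its symbol. *CYP26B1*, which clears retinoic acid and is known from limb and skeletal development, was at 18.6 FPKM in T10, 21.9 in T1 and 13.0 in T3. N1 also had 21.9 FPKM, while N3 had 5.72, N9 1.72 and N8 1.37, so N1 lay just below T1 and the other 3 lay below all tumor samples. Its log2 fold change came to 1.72 (standard error 0.78, unadjusted p = 0.0531 by limma), and it passed in 3 of the 18 alternatives. These were without N1 (2.39, unadjusted p = 0.00295 by limma), with sample weights (2.09) and with a pseudocount of 0.1 (2.03). *CYP26C1*, which lies within 500 kb of *RBP4* on chromosome 28, was at 14.2 FPKM in T3 and at most 3.63 in the other 6 samples. It did not share the pattern of *RBP4*: T10, the highest sample in *RBP4*, had 0.0781 FPKM of *CYP26C1*. Of the 7 genes tested in that window, 1 was higher and 1 lower in OSA tumor, beside 3.28% and 3.58% of all genes. Their median log2 fold change was 0.14.

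Among receptors, *RARG*, the retinoic acid receptor of cartilage and skin, was highest in 1 sample of each group: N1 was at 25.3 FPKM and T1 at 29.8, while T10 was at 10.03, T3 at 7.76 and the other 3 non-tumor samples between 2.98 and 4.40. Its log2 fold change was 1.03 (unadjusted p = 0.208 by limma). The retinoid X receptor *RXRG* was at 2.49 FPKM in N1 and 2.82 in N3 and between 18.4 and 35.9 in the other 5 samples (log2 fold change 1.06, unadjusted p = 0.275 by limma). *RXRB* was at -0.76. Of the 4 genes tested in this role, 0 passed, and *RXRA* and *FABP5* were not found by symbol. Of 8 corepressors and coactivators, 0 passed and 7 had negative fold changes. The corepressor *NCOR1* was below every non-tumor sample in each tumor, at 11.2 to 15.2 FPKM against 15.7 to 56.1 (log2 fold change -0.81, unadjusted p = 0.155 by limma). T1, at 15.2, lay close to N1, at 15.7, and the fold change was -0.43 without N9. This was the only 1 of the 41 pathway genes tested whose groups did not overlap. Over all genes tested that share was 5.85%, with 2.81% having OSA tumor below.

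Of the 10 target genes tested, 0 were higher and 3 were lower in OSA tumor, beside 3.28% and 3.58% of all genes. The median log2 fold change was 0.30. *TGM2*, a crosslinking transglutaminase, was at 1.38 FPKM in T10, 4.37 in T1 and 5.67 in T3, and at 3.54 in N1, with N3, N9 and N8 at 13.4, 18.2 and 24.1 (log2 fold change -1.60, unadjusted p = 0.0418 by limma). *RARRES2*, which encodes the chemoattractant chemerin, was at 0.136 FPKM in T10, 7.03 in T1 and 14.5 in T3, and at 6.36 in N1, with N9, N8 and N3 at 23.5, 30.2 and 66.0, so N1 lay within the tumor range. Its log2 fold change was -2.25 (unadjusted p = 0.0463 by limma) and -1.15 without T10 (unadjusted p = 0.228), and its interval in the annotation is shared by 11 listed genes. *CEBPE*, a transcription factor of granulocyte maturation, was at 33.6 FPKM in N3 and 44.4 in N8 but at 1.84 in N9 and 0.281 in N1, and at most 0.284 in OSA tumor, so N1 lay within the tumor range, and the gene met the filter through its non-tumor values alone (log2 fold change -2.88, unadjusted p = 0.0382 by limma). *CEBPE* is also in the granulocyte list, of which 6 of 7 genes tested were lower, beside 3.58% of all genes. Of that list, *MPO*, at 0.0608 to 2.57 FPKM in OSA tumor, also met the filter through its non-tumor values. *RARRES1*, the most abundant target, was at 383 FPKM in T1 and 298 in N1, and its log2 fold change of 0.95 did not pass. With 1 sample left out it ran from 0.26 without N9 to 1.75 without T3. *CDX1*, a homeobox factor of gut and body axis, was at 21.7 FPKM in T3 and at most 0.305 in the other samples, and *MEIS2* was at 20.7 in T3 and at most 1.80 elsewhere.

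**Figure D4:**
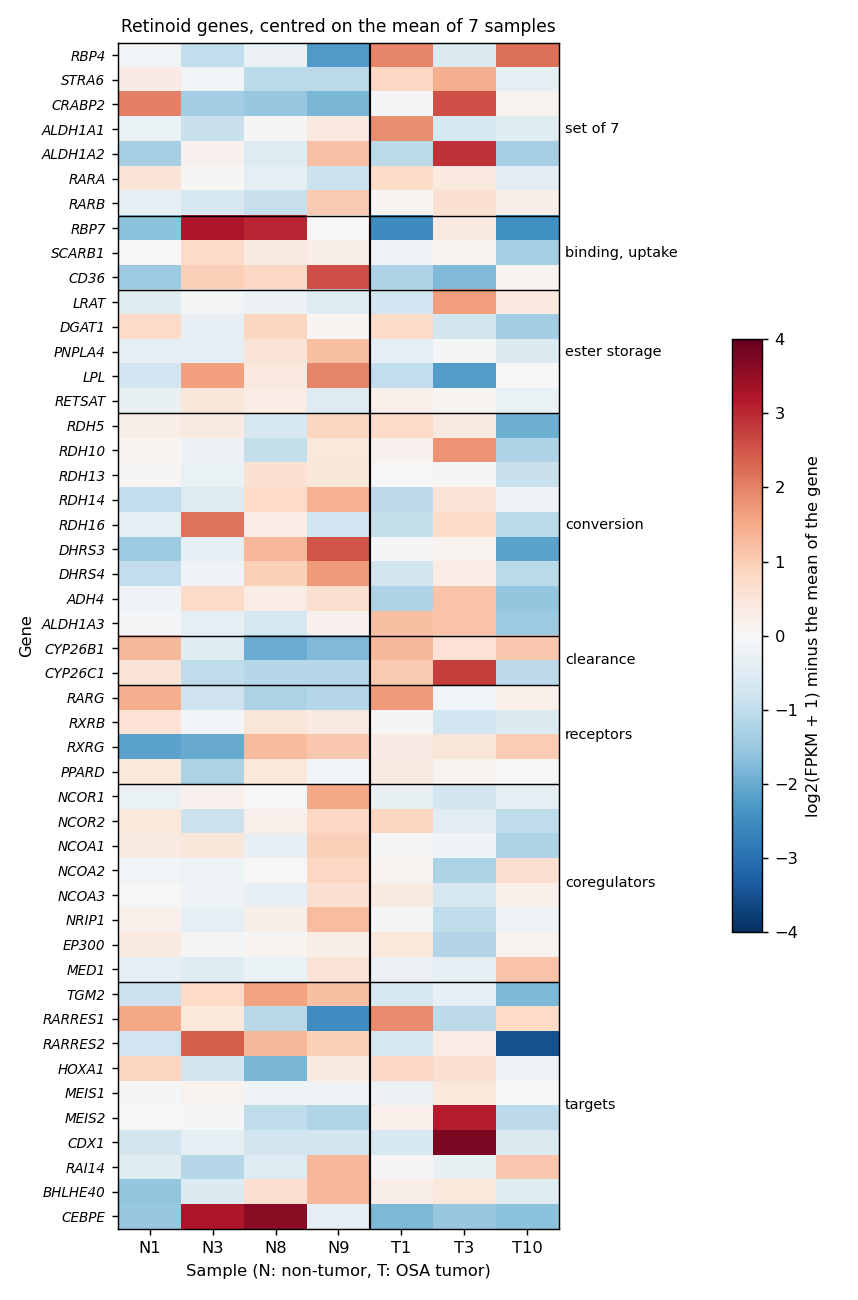
Log2(FPKM + 1) of 48 retinoid genes (rows, 7 of the set above and 41 of the pathway list below, by role) in the 7 samples (columns), each gene centred on its mean; red is above and blue below that mean. In T3, *CRABP2*, *ALDH1A2*, *CYP26C1*, *MEIS2* and *CDX1* are red, in T1 and T10 *RBP4* is, and in N1 *CRABP2*, *RARG* and *CYP26B1* are.

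The tumor samples thus differed from one another in which retinoid genes were high. T3 was the highest tumor sample in 4 of the 7 genes of the set (*STRA6*, *CRABP2*, *ALDH1A2* and *RARB*) and in 19 of the 41 pathway genes (46.3%), beside 32.2% of all genes tested. Of these 19, *LRAT*, *CYP26C1*, *MEIS2* and *CDX1* met the filter on low values through their tumor samples alone, so the share gives no support on its own. T10 was the highest tumor sample in 1 gene of the set, *RBP4*, and in 6 of the pathway genes (14.6%), beside 30.8% of all genes. T1 was highest in *ALDH1A1* and *RARA*, and in 39.0% of the pathway genes beside 37.0% of all genes. Among non-tumor samples, N1 was the highest in *RBP4*, *STRA6*, *CRABP2* and *RARA*, and N9 in *ALDH1A1*, *ALDH1A2* and *RARB*. These shares are descriptions, since the genes share their samples.

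The whole series was uneven in ways that touch these values. The FPKM of a sample summed to between 539648 and 1752340, and rescaling every sample to the same sum moved the median log2 fold change of all genes to 0.12 and that of *RBP4* to 2.28. Of other markers, 8 of 10 skeletal muscle genes, 7 of 11 erythroid genes and 3 of 7 endothelial genes tested were lower in OSA tumor, with 0 higher. Of all genes tested, 3.58% were lower and 3.28% higher. Most of the lower muscle and erythroid genes met the filter on low values through their non-tumor values. The summed muscle level was 73.9 to 83148 FPKM in non-tumor bone and 2.89 to 7.08 in OSA tumor. The summed erythroid level was 7.82 FPKM in N1, 271 in N9 and 3136 or more in N3 and N8, and at most 83.2 in OSA tumor. Of 9 osteoblast genes 1 was higher, of 6 chondrocyte genes 2 were higher, and of 7 osteoclast, 7 macrophage and 2 hepatocyte genes 0 passed. N1 had the lowest muscle, erythroid, granulocyte, adipocyte and endothelial sums of the non-tumor samples and the highest osteoblast sum. The part of these differences in the retinoid values was not tested.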

How the data were processed

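RNAseq of 4 non-tumor and 3 OSA tumor samples was analysed. Per the study's methods, Trim Galore removed adapters and low-quality bases, Tophat2 placed reads on CanFam3.1 and Cufflinks/Cuffdiff gave FPKM for each gene and sample. The authors' deposited FPKM were used as they stand. The versions and the normalization between libraries are not given in the sources used here. The columns of the authors' own comparison (group FPKM, fold changes, statistics, p and q values) were not used. Genome intervals came from that table, with 1 added to each start. No counts were analysed, so depth is known only relative to N1, from steps between the lowest FPKM. It ranged from 0.546 (N8) to 1.43 (T10), and 19 of 21 pairs of samples matched.

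The 13507 genes whose mean was 1 FPKM or more (11073 fell short) were compared as log2(FPKM + 1), which understates the change of low genes, by limma 3.58.1 in R 4.3.3 with a mean-variance trend and Benjamini-Hochberg adjustment. The fit was tested on simulated data. Promoter and protein sequences were not used here. Exact permutation tests used Python 3.11.15.

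The members and lists were chosen with earlier results of these data known. Beside the members, pathway genes were named if past the threshold or the most abundant of their role, with the 5 genes most like *RBP4*; others were named after their values were seen. The pathway list and its counts leave out 1 gene that is not reported here. Lists marked osteoblast, osteoclast, adipocyte, hepatocyte, skeletal muscle, erythroid, granulocyte, macrophage, chondrocyte and endothelial cells. Alternatives were other pseudocounts, filters, scalings, limma without trend, sample weights, the sample number as a block and each sample left out.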

Additional observations from a re-analysis of the deposited data

Results flagged for a closer look

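*CRABP2* in N1, at 74.9 FPKM, stood far from the other 3 non-tumor samples: the gap on the log2 scale was 0.888 of the range of the group. This was 1 of 17 genes looked at in the non-tumor samples in this way, with a 95% critical value, which by its definition chance passes in about 1 in 20 groups. Groups of 3, such as OSA tumor, were not looked at.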

How the results depend on the processing

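*RBP4* kept a positive log2 fold change in all 18 alternatives and passed in 12. It did not pass without the filter (2.09) and ran from 1.59 to 2.97 with 1 sample left out. The number of genes of the set past the threshold was 0 without the filter and 0 to 2 with 1 sample left out. For the pathway list it was 0 without the filter, 2 with quantile normalization and 0 to 9 with 1 sample left out. Over all genes it was 617 without the filter, 1857 with sample weights and 319 to 1997 with 1 sample left out. The causes were not tested.

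The study calls its non-tumor tissue matched, but neither the labels nor its methods tie a sample number to a dog, so pairing was tried only as an alternative. The deviations of the samples numbered 1 correlated at 0.42 and those of the samples numbered 3 at 0.21 across genes. Samples with different numbers were not correlated for comparison, so these values cannot show whether a number marks a dog. With the number as a random block over all 7 samples, *RBP4* was at 1.81 and was the 1 gene of the set that passed. The 5 of the pathway list that passed were *RBP7*, *LPL*, *CYP26C1*, *RARRES2* and *CEBPE*. The call of *TGM2* was lost (-1.21, unadjusted p = 0.0675 by limma). The fixed block could use N1, N3, T1 and T3 alone, so it also left out N8, N9 and T10. In these 4 balanced samples a block alters the error and not the fold change, so the moves in value come from the samples left out. There *RBP4* was at 1.24 and did not pass, 0 genes of the set, 2 of the pathway list (1 of them *RXRG*, at 2.48) and 241 over all genes passed, and *DHRS4* (0.36) and *RARRES1* (-0.57) had the opposite sign to the fit with all 7 samples.

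*ALDH1A2* changed sign with a pseudocount of 0.1 (-0.17) or 0.01 (-0.37) and ran from -1.07 to 1.03 with 1 sample left out, and *ALDH1A1* from -0.38 to 0.87. With few fragments behind low FPKM, *TTR* and *STRA6* could not be compared finely.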
